A study of Homo sapiens with 6 samples.

Results

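A set of 9 genes of cellular iron handling was followed in EA.hy926 cells after 8 h of low oxygen: the transferrin receptor gene TFRC, the endosomal ferrireductase gene STEAP3 and the divalent metal transporter gene SLC11A2, which act in uptake; the exporter gene SLC40A1; the ferritin chain genes FTH1 and FTL and the ferritin receptor gene NCOA4, which act in storage; and IREB2 and FBXL5, which act in regulation. They were chosen by name, and all 9 were among the 22153 genes of the deposited table. Polyadenylated RNA was sequenced in 3 libraries after 8 h at 1% oxygen (hypoxia) and in 3 libraries at 20% oxygen (normoxia). EA.hy926 is 1 human line, a hybrid of an umbilical vein endothelial cell and A549, a lung carcinoma line, and both groups carry that mixed background. Cultures were grown in high-glucose medium with fetal bovine serum, and hypoxia began at 80% to 90% confluence. The labels do not say whether replicates were separate cultures, so each p-value reflects the spread among these libraries alone, and that spread may be technical.

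Cells take up iron mainly as transferrin bound to the transferrin receptor. In the endosome the iron is reduced by STEAP3 and passes to the cytosol through the transporter encoded by SLC11A2. Surplus iron is stored in ferritin, a shell of heavy and light chains encoded by FTH1 and FTL. NCOA4 carries ferritin to the lysosome, where the iron is released again, and ferroportin, encoded by SLC40A1, exports it. The balance is set largely after transcription by the iron regulatory proteins IRP1 and IRP2, encoded by ACO1 and IREB2. They bind a short hairpin called the iron-responsive element. Bound in the 5′ untranslated region (UTR) it blocks translation, and bound in the 3′ UTR of TFRC it protects the transcript from decay. FBXL5 is the subunit of an ubiquitin ligase that marks IRP2 for destruction, and its stability depends on iron and oxygen. TFRC is also known as a target of the hypoxia-inducible factor HIF-1.

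The element is shown because its place in the transcript divides these genes by role. Transcripts of GENCODE release 29 (GRCh38) were searched on the sense strand for a C, 5 further bases, the loop CAGTG with any base after it, and then 5 bases that pair with the 5 before the loop, G-T pairs allowed. Capitals mark the bulged C and the 6-base loop, and sequences are written as DNA, 5′ to 3′.
FTH1, 5′ UTR, chr11:61967574-61967602, minus strand: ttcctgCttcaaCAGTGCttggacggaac
FTL, 5′ UTR, chr19:48965335-48965363, plus strand: ctcttgCttcaaCAGTGTttggacggaac
SLC40A1, 5′ UTR, chr2:189580661-189580689, minus strand: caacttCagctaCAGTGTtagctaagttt
TFRC, 3′ UTR, chr3:196050979-196051007, minus strand: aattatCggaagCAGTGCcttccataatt
TFRC, 3′ UTR, chr3:196050575-196050603, minus strand: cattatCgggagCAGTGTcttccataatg
TFRC, 3′ UTR, chr3:196050510-196050538, minus strand: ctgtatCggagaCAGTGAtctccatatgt
TFRC, 3′ UTR, chr3:196050463-196050491, minus strand: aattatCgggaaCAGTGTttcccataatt
SLC11A2, 3′ UTR, chr12:50988269-50988297, minus strand: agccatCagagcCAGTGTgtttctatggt

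FTH1, FTL and SLC40A1 held 1 element each, upstream of the coding sequence, and TFRC held 4 within one stretch of its 3′ UTR. The SLC11A2 hairpin paired at 4 of the 5 positions and lay in 5 of that gene's transcripts. IREB2 held only a match with 4 pairs, in its 3′ UTR, and STEAP3, NCOA4 and FBXL5 held none. Such a match is a description of the letters and not a measured binding site. The search can also miss known elements. EPAS1, known to carry one, was searched too and held no match with 4 or 5 pairs. Of 14409 genes in the table with a coding transcript and a UTR, 26 (0.180%) held the full motif in a 5′ UTR and 109 (0.757%) in a 3′ UTR.

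The libraries held 17226736 to 18652704 reads assigned to genes. Values below are size-factor-scaled reads (reads divided by 1 factor per library), and FPKM is that value scaled to exon length and to the average library size. BNIP3, a known HIF target, had 6951, 5879 and 7254 scaled reads in hypoxia, against 520.03, 573 and 694 in normoxia, so the libraries followed their labels. Of 10 endothelial markers, 9 were expressed above the filter and CLDN5 was near 0. Their summed level was 601 to 1607 FPKM in hypoxia and 525 to 1158 FPKM in normoxia. Summed epithelial markers reached 618 to 962 FPKM in hypoxia and 694 to 1124 FPKM in normoxia, nearly all from KRT7, KRT8 and KRT18. The epithelial markers EPCAM and KRT19 were below the filter, at means of 0.163 and 0.221 FPKM over the 6 libraries. CDH1 was not found in the table. Summed fibroblast and mural markers reached at most 4.27 FPKM in hypoxia and 3.21 FPKM in normoxia. Normoxia replicate 3 stood apart, with reads in 16741 genes, against 18214 to 18858 genes in the other 5 libraries. Each library also had its own trend on the GC content of genes. Relative to the 6-library mean, the trend was -0.16, 0.28 and -0.13 on the log2 scale per 10 percentage points of GC in hypoxia replicates 1 to 3, and 0.36, 0.09 and -0.44 in normoxia replicates 1 to 3.

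None of the iron genes changed past the test. Limma tested the 10237 genes that reached 1 FPKM in 3 or more libraries, and 10 of these passed (0.0977%). Of 3 genes read as a check of the labels, BNIP3 and PGK1 passed (limma adjusted p = 0.00207 and 0.0236). VEGFA did not (limma adjusted p = 0.863), although its groups lay apart with a ratio of means of 2.89. It passed by DESeq2 (adjusted p = 0.00345). A gene that missed the limma test was therefore not shown to be unchanged. Of the 9 iron genes 8 could be tested and 0 passed, with an adjusted p of 1.00 for each of the 8. At an unadjusted p below 0.05, limma, edgeR and DESeq2 each called 0 of the 8, beside 2.69% of all genes by limma, and after adjustment edgeR and DESeq2 also called 0, beside 0.0977% and 0.488% of all genes. In all 8 tested iron genes, and in SLC40A1, the hypoxia and normoxia values overlapped. Over all genes tested, 7.48% had groups that did not overlap, 4.77% higher and 2.72% lower in hypoxia. With only 8 genes, a count of 0 is near that share. Of the 8, 4 had a positive and 4 a negative log2 difference. These are whole-culture values, in which fewer expressing cells and less RNA per cell cannot be told apart.

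**Figure D1:**
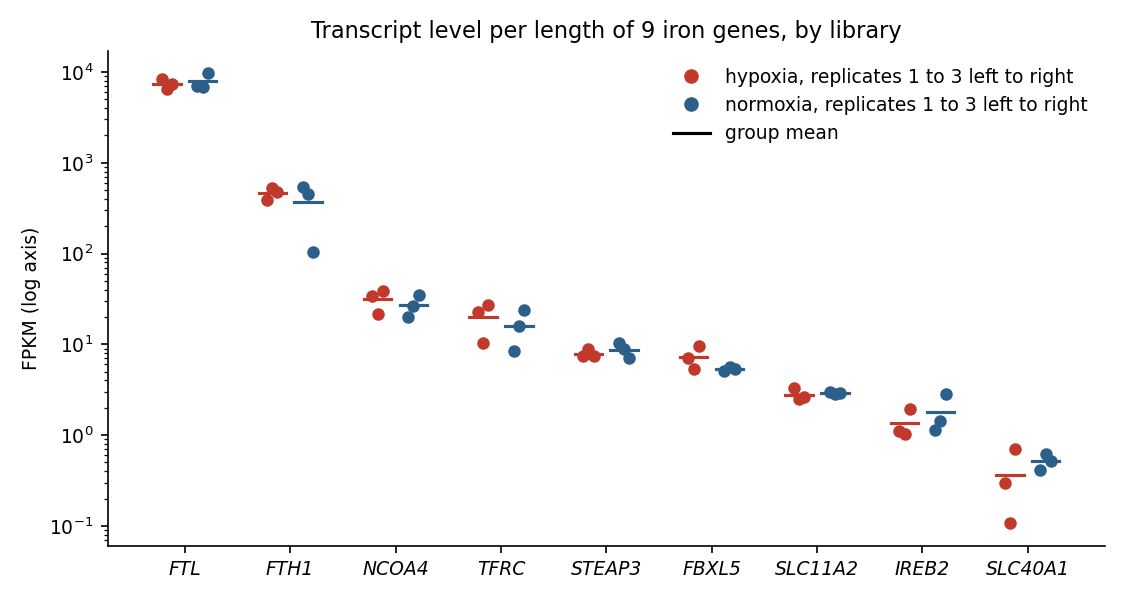
FPKM of each gene in every library on a log axis, with hypoxia to the left of normoxia and a bar at each group mean (n = 3). FTL stood highest, with means of 7397 FPKM in hypoxia and 7857 FPKM in normoxia. FTH1 of normoxia replicate 3 lies far below its group at 103 FPKM, and SLC40A1 of hypoxia replicate 2 below its own at 0.107 FPKM.

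The levels spanned a wide range, and the order was nearly the same in every library. Per length, FTL ranked between first and place 3 among 14565 protein-coding genes in every library, with 6416 to 9685 FPKM and 0.520% to 0.875% of all reads. FTH1 followed at 103 to 544 FPKM, below FTL in 6 of 6 libraries. NCOA4, at 20.2 to 38.9 FPKM, stood above TFRC, at 8.51 to 27.4 FPKM, in 6 of 6 libraries although their ranges overlap. TFRC and STEAP3 (7.05 to 10.4 FPKM) overlapped, as did STEAP3 and FBXL5 (5.08 to 9.51 FPKM), and each of these pairs kept its order in 5 of 6 libraries. SLC11A2 (2.48 to 3.27 FPKM) overlapped with IREB2 (1.04 to 2.84 FPKM), and SLC40A1 was lowest at 0.107 to 0.701 FPKM. The exons summed to 878 bases for FTL and 2030 bases for FTH1, so the distance between the ferritin chains depends on the annotated lengths.

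In the uptake genes, TFRC was the most variable and SLC11A2 the steadiest. TFRC (chr3:196027183-196082189, minus strand, ENSG00000072274) had 3183, 1453 and 3866 scaled reads in hypoxia, against 1199, 2235 and 3384 in normoxia. Each group held both high and low libraries, and normoxia replicate 3 was higher than hypoxia replicates 1 and 2. The means were 2834 ± 1244 in hypoxia and 2272 ± 1093 in normoxia (SD, n = 3 each), and the log2 difference was 0.32 (95% interval -0.77 to 1.41). It turned to -0.072 without normoxia replicate 1. The interval reaches past a doubling, so these libraries could not tell such a change from none. In TFRC the 2 lowest libraries, normoxia replicate 1 and hypoxia replicate 2, were also those with the most positive GC trends, and TFRC has a GC content of 41.8%. After each library was corrected for its GC trend the log2 difference was 0.33, with a narrower interval of -0.35 to 1.00.

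SLC11A2 had 593, 449 and 474 scaled reads in hypoxia, against 541, 519 and 523 in normoxia. The normoxia libraries lay close together and inside the range of the hypoxia libraries. The log2 difference of -0.07 (95% interval -0.64 to 0.50) had an interval within a halving and a doubling. STEAP3 had 602, 729 and 607 scaled reads in hypoxia, against 846, 718 and 575 in normoxia, with the highest and the lowest value both in normoxia. Its log2 difference was -0.13 (95% interval -0.68 to 0.43). STEAP3 shares 500 bp of exon with STEAP3-AS1 on the other strand, listed at 0.951 to 9.33 scaled reads in hypoxia and 0.00 to 1.88 in normoxia. Both differences are small enough for 1 library to decide their sign: SLC11A2 stood at 0.0079 without hypoxia replicate 2 and STEAP3 at 0.0026 without normoxia replicate 1.

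**Figure D2:**
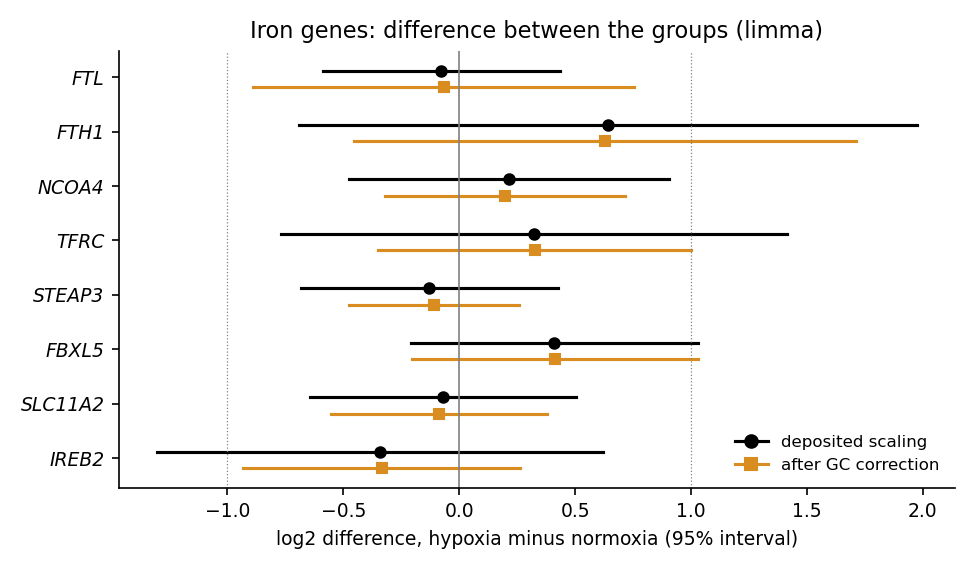
Log2 difference, hypoxia minus normoxia, of the 8 tested genes with 95% intervals from limma (n = 3 per group), on the deposited scaling (black) and after correction for each library's GC trend (orange), with dotted lines at a halving and a doubling. Every interval includes 0, and the FTH1 interval is the widest on the deposited scaling, from -0.69 to 1.97.

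The exporter SLC40A1 was scarcely expressed and fell below the filter. Its reads numbered 22, 8 and 57 in the hypoxia libraries and 30, 51 and 43 in the normoxia libraries, so the hypoxia libraries hold both the lowest and the highest value. In a fit with no filter the log2 difference was -0.60 (95% interval -1.85 to 0.64, limma adjusted p = 1.00).

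Of the ferritin chains, FTL was steady and FTH1 was low in 1 normoxia library. FTL (chr19:48965301-48966878, plus strand, ENSG00000087086) had 130411, 100622 and 116975 scaled reads in hypoxia, against 109835, 107956 and 151886 in normoxia. The means were 116002 ± 14918 in hypoxia and 123226 ± 24838 in normoxia (SD, n = 3 each). The interval of the log2 difference of -0.08 (95% interval -0.59 to 0.44) lay within a halving and a doubling, also after the GC correction (-0.89 to 0.75). Its sign turned to 0.022 without hypoxia replicate 2 and to 0.083 without normoxia replicate 3.

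FTH1 (chr11:61959718-61967660, minus strand, ENSG00000167996) had 13968, 19247 and 17283 scaled reads in hypoxia, against 19718, 16623 and 3739 in normoxia. The other 5 libraries lay between 13968 and 19718, and normoxia replicate 3, the library with the highest FTL value, was far below them. The means were 16833 ± 2668 in hypoxia and 13360 ± 8474 in normoxia (SD, n = 3 each), and the log2 difference was 0.64 (95% interval -0.69 to 1.97). It was 0.33 by edgeR and by DESeq2, and -0.12 by limma without normoxia replicate 3, so the positive value rested on that library. The within-group SD of FTH1, 0.95 on the log2 scale, was larger than that of 95.1% of the genes tested, whereas that of FTL, 0.24, was larger than that of 21.8%. The tested protein-coding genes whose profile over the 6 libraries lay nearest to FTH1 were HOXB6, PAGR1 and POLD4, at root mean square distances of 0.15, 0.15 and 0.17 on the log2 scale. All 3 were lowest in normoxia replicate 3, at 9.40, 39.5 and 86.5 scaled reads. That follows from picking them by likeness to FTH1, which deviated by -1.84 in that library. The nearness of these genes was found among 9229 candidates.

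**Figure D3:**
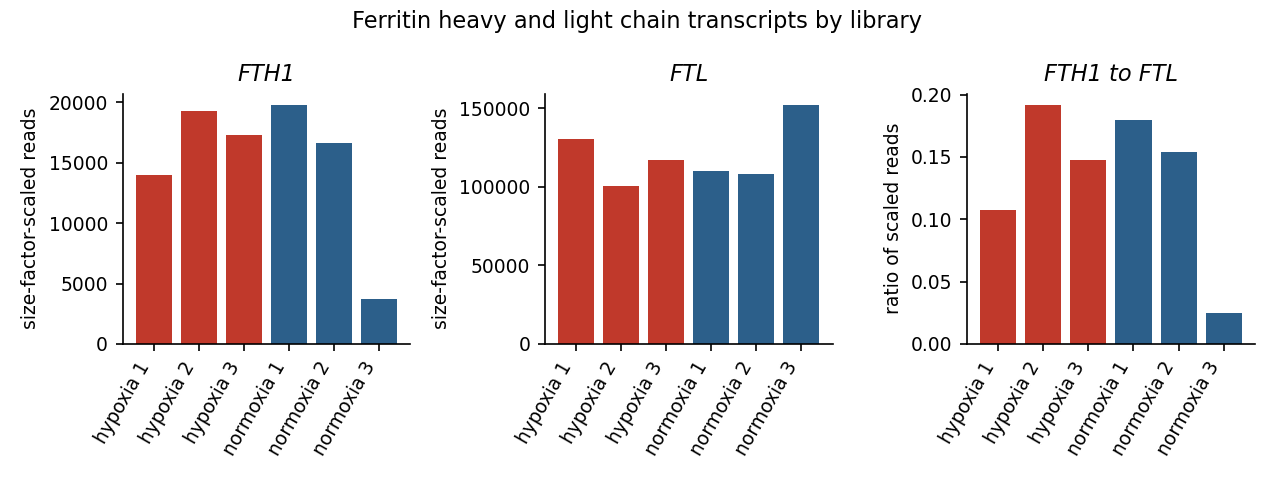
Scaled reads of FTH1 and FTL and the ratio between them in each library, hypoxia in red and normoxia in blue, all axes from 0. Normoxia replicate 3 had the lowest FTH1 (3739), the highest FTL (151886) and a ratio of 0.0246, against 0.107 to 0.191 in the other 5 libraries.

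Within a library, FTH1 reads were 0.107, 0.191 and 0.148 of FTL reads in hypoxia, against 0.180, 0.154 and 0.0246 in normoxia. The ratio is free of library scaling. The groups overlapped (log2 difference 0.72, two-sided exact permutation test p = 0.70, 0.90 adjusted over 3 ratios), in a design whose smallest possible p is 0.10. Without normoxia replicate 3 the log2 difference was -0.20. Ferritin genes have many near-identical pseudogene copies. The 11 FTH1 and 2 FTL copies in the table were small beside their parents: the FTH1 copies held 1.42% to 1.75% of FTH1 reads in hypoxia and 1.61% to 3.77% in normoxia, highest in normoxia replicate 3, and the FTL copies at most 0.0491% of FTL reads. Adding these reads to the parent genes gave a log2 difference of 0.70 for the ratio. How reads matching several copies were counted is not stated in the labels. The exons of FTH1 also share 1267 bp, 62.4% of their length, with BEST1 on the opposite strand. BEST1 was listed at no more than 8.30 scaled reads in hypoxia and 2.12 in normoxia. Strand handling is not stated in the labels, so these values cannot show whether reads in the shared stretch were all counted for FTH1.

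NCOA4, the receptor that delivers ferritin for degradation, had 2506, 1582 and 2837 scaled reads in hypoxia, against 1475, 1935 and 2517 in normoxia. As with TFRC, hypoxia replicate 2 and normoxia replicate 1 were the 2 lowest libraries. The means were 2308 ± 650 in hypoxia and 1976 ± 522 in normoxia (SD, n = 3 each), with a log2 difference of 0.21 (95% interval -0.48 to 0.90). With 1 library left out at a time it stayed positive, from 0.022 without normoxia replicate 1 to 0.46 without hypoxia replicate 2. TFRC reads were 0.228, 0.0755 and 0.224 of FTH1 reads in hypoxia, against 0.0608, 0.134 and 0.905 in normoxia. That ratio of uptake to storage transcript gave a log2 difference of -0.31 (two-sided exact permutation test p = 0.90, adjusted 0.90), 0.21 without hypoxia replicate 2 and 0.79 without normoxia replicate 3. The GC contents of TFRC and FTH1 are 41.8% and 53.9%. Over the 6 libraries the ratio rose in the same order as the library GC trend fell, from normoxia replicate 1 to normoxia replicate 3. The ratio was not corrected for GC, and the cause of its spread was not tested.

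Among the regulators, FBXL5 had the highest ratio of means of the 9 genes, 1.37, and IREB2 went the other way, at 0.749. FBXL5 had 581, 438 and 777 scaled reads in hypoxia, against 415, 460.2 and 434 in normoxia. The normoxia libraries were close together, and hypoxia replicate 2 lay among them while replicates 1 and 3 lay above. The means were 598 ± 170 in hypoxia and 437 ± 22.6 in normoxia (SD, n = 3 each). The log2 difference of 0.41 (95% interval -0.21 to 1.03) stayed positive with 1 library left out at a time, from 0.21 to 0.61. The limma adjusted p was then 0.83 to 1.00. It was 0.41 after the GC correction (95% interval -0.20 to 1.03).

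IREB2, which encodes IRP2, had 213, 200.1 and 371 scaled reads in hypoxia, against 220.3, 277 and 548 in normoxia. Replicate 3 was the highest library in each group. The log2 difference was -0.34 (95% interval -1.30 to 0.62), and 0.022 without normoxia replicate 3. With a GC content of 40.8%, IREB2 was highest in the library with the most negative GC trend. After the GC correction its log2 difference was -0.33 (95% interval -0.93 to 0.26). ACO1, which encodes the bifunctional IRP1 and cytosolic aconitase, had 1278, 906 and 1061 scaled reads in hypoxia, against 1165, 1297 and 985 in normoxia, with a log2 difference of -0.09. IREB2 reads were 0.166, 0.221 and 0.349 of ACO1 reads in hypoxia, against 0.189, 0.214 and 0.557 in normoxia. The log2 difference of this ratio was -0.27 (two-sided exact permutation test p = 0.70, adjusted 0.90), and 0.22 without normoxia replicate 3.

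**Figure D4:**
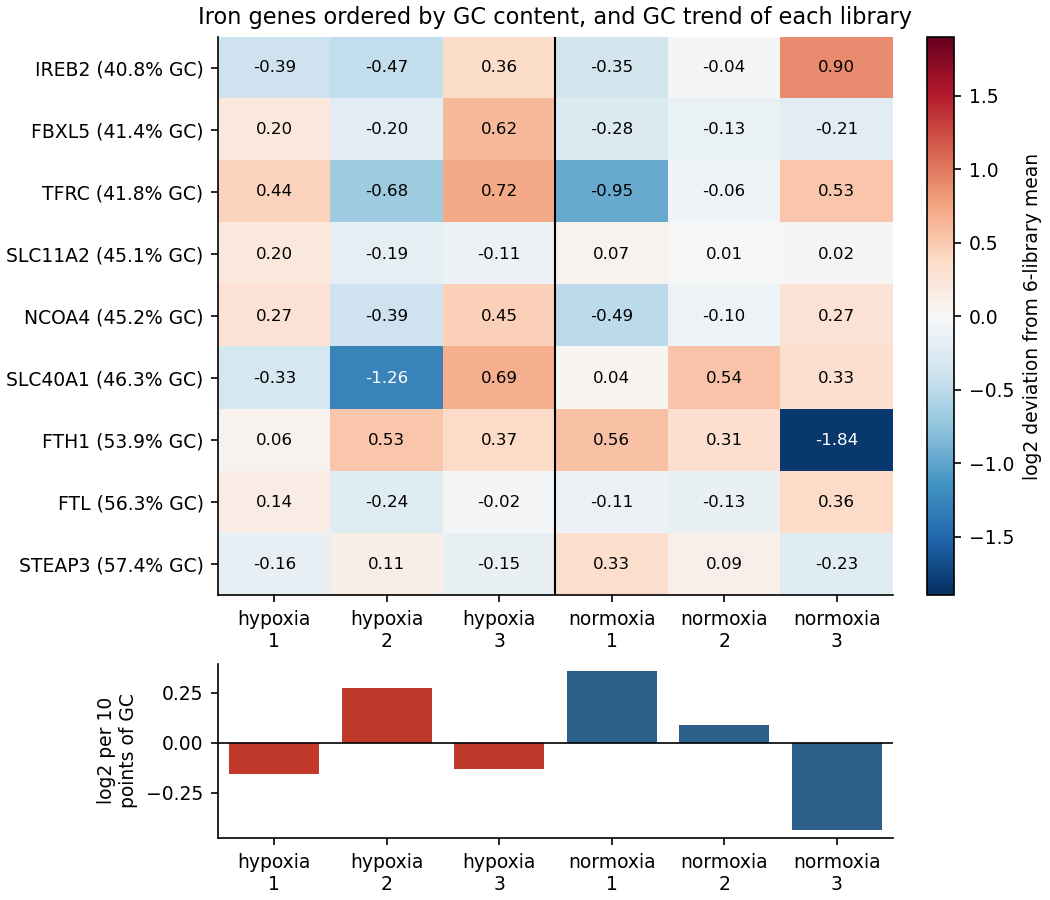
Log2 deviation of each gene from its 6-library mean (upper panel, genes ordered by GC content, hypoxia left of normoxia), above the GC trend of each library (lower panel, log2 per 10 percentage points of GC). TFRC and NCOA4 were lowest in the libraries with the most positive trends, and FTH1 of normoxia replicate 3 deviated by -1.84.

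Across libraries, TFRC and NCOA4 deviated in the same direction in all 6. TFRC deviated from its mean by -0.68 in hypoxia replicate 2 and -0.95 in normoxia replicate 1, and NCOA4 by -0.39 and -0.49. In normoxia replicate 3, with the steepest negative trend, IREB2 deviated by 0.90, TFRC by 0.53 and NCOA4 by 0.27, whereas FBXL5, with a GC content of 41.4%, deviated by -0.21. Among the GC-rich genes STEAP3 deviated by 0.33 in normoxia replicate 1 and -0.23 in normoxia replicate 3. FTH1 and FTL, with GC contents of 53.9% and 56.3%, deviated by -1.84 and 0.36 in normoxia replicate 3, on opposite sides. With each library's GC trend removed, FTH1 had a log2 difference of 0.63 (95% interval -0.45 to 1.71).

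The core of the hypoxia response element, ACGTG or GCGTG on either strand with overlapping matches counted, was looked for in RefSeq promoters (GRCh38.p14, 250 bases before to 50 after the start), where 8 of the 9 genes matched by symbol. It occurred in 48.4% of 27305 promoters. TFRC held 1 core, at position -88 from the start. IREB2 held 1, FBXL5 2, FTL 3 and SLC11A2 4, and NCOA4, STEAP3 and SLC40A1 held 0 in this window.

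The wider iron pathway was read from 8 lists of 87 genes, of which 67 were tested, and limma, edgeR and DESeq2 called 0 of them after adjustment. At an unadjusted p below 0.05 limma called 1 of the 67, SLC25A37, beside 2.69% of all genes tested. The median log2 difference was -0.04 over the 59 tested genes other than the iron genes above, and 0.0035 over all genes tested. Groups did not overlap in 3 of the 59 (SLC25A37, LYRM4 and NFS1), beside 7.48% of all genes tested. STEAP4, FTMT, SCARA5, HAMP and HJV were not found by symbol in the table, so they have no values here.

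Among 7 tested uptake genes the median was -0.07, with the zinc and iron transporter gene SLC39A14 at 1202 ± 306 scaled reads in hypoxia and 1366 ± 214 in normoxia (log2 difference -0.20, but 0.016 without hypoxia replicate 3), and the lactoferrin gene LTF at 96.2 ± 12.5 in hypoxia and 86.0 ± 25.6 in normoxia (log2 difference 0.18). The second transferrin receptor gene TFR2 and the transferrin gene TF were below the filter, TF with 0.00 to 3.11 scaled reads in hypoxia and 0 in normoxia. Among 7 storage genes the median was 0.15, with the ligase gene HERC2, which acts on NCOA4, at -0.31 (-0.048 without hypoxia replicate 1) and the autophagy receptor gene TAX1BP1 at 0.16. The TAX1BP1 value was -0.16 by edgeR and -0.20 by DESeq2, and also negative without hypoxia replicate 1, normoxia replicate 1 or normoxia replicate 2. Only HFE and BMP6 of the export and hepcidin list were tested, with log2 differences of 0.33 and -0.02. That of HFE was 0.054 without normoxia replicate 3. That of BMP6 was 0.0072 with TMM scaling and also positive without hypoxia replicate 1 or 3 or without normoxia replicate 1 or 2. The ferroxidase gene CP stood at 0.00 to 1.04 scaled reads in hypoxia and 0.00 to 2.12 in normoxia. Among 6 genes of IRP regulation the median was 0.02, and RBX1 and CUL1, subunits of the ligase that FBXL5 serves, had log2 differences of 0.34 and 0.13, that of CUL1 being -0.012 without normoxia replicate 1.

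No haem or iron-sulphur gene passed the test, and the largest log2 difference among the 67 tested genes of the lists was that of SLC25A37. FLVCR1, a listed haem gene below the filter, had 42, 31 and 29 reads in hypoxia, against 77, 69 and 72 in normoxia. In a fit with no filter its log2 difference was -0.86 (95% interval -1.62 to -0.10), and it did not pass. FLVCR1 was named outside the naming rule, after its values were seen. The groups also did not overlap in STEAP2, an uptake gene below the filter. STEAP2 had 14, 13 and 19 reads in hypoxia, against 22, 22 and 83 in normoxia (log2 difference -0.72, 95% interval -1.84 to 0.39, no filter). HMOX1, the haem oxygenase that frees iron from haem, had 2245, 2032 and 1011 scaled reads in hypoxia, against 2770, 1813 and 3337 in normoxia. Its log2 difference of -0.62 (95% interval -1.45 to 0.22) stayed negative with 1 library left out at a time, but was only -0.26 without hypoxia replicate 3. Hypoxia replicate 2 lay above normoxia replicate 2. Over the 15 tested haem genes the median was -0.06, 10 were negative, and the exporter gene ABCG2 had a log2 difference of -0.44, which was 0.031 without hypoxia replicate 2. SLC25A37, which encodes the mitochondrial iron importer mitoferrin-1, had 1355, 1915 and 1339 scaled reads in hypoxia, against 981, 849 and 733 in normoxia. Every hypoxia library was above every normoxia library, and the means were 1537 ± 328 in hypoxia and 854 ± 124 in normoxia (SD, n = 3 each). The log2 difference was 0.83 (95% interval 0.25 to 1.40). Its adjusted p was 1.00 by limma, 0.9998 by edgeR, 0.293 by DESeq2 and 0.349 by limma after the GC correction. With 1 library left out at a time the log2 difference ran from 0.66 (without hypoxia replicate 2) to 0.93 (without normoxia replicate 1).

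Over the 19 tested genes of mitochondrial iron and cluster assembly the median was -0.04, with 8 positive and 11 negative. The transporter gene ABCB10 had a log2 difference of -0.52. LYRM4, a partner of the cysteine desulphurase, had 695, 601 and 658 scaled reads in hypoxia, against 575, 513 and 398 in normoxia, and NFS1, the desulphurase itself, had 679, 621 and 681 in hypoxia, against 723, 750.0 and 687 in normoxia. Both were named after their values were seen, because their groups did not overlap. Of 9 cytosolic cluster assembly genes none passed, and CIAO2B and NDOR1 had log2 differences of 0.33 and -0.23. That of CIAO2B was 0.064 without normoxia replicate 3, and that of NDOR1 -0.013 without normoxia replicate 1. Among other transcripts known to carry an iron-responsive element, EPAS1, which encodes HIF-2 alpha, had a log2 difference of 0.02, and the kinase gene CDC42BPA one of -0.23. That of EPAS1 was -0.20 without hypoxia replicate 2, -0.18 without hypoxia replicate 3 and -0.30 without normoxia replicate 3.

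**Figure D5:**
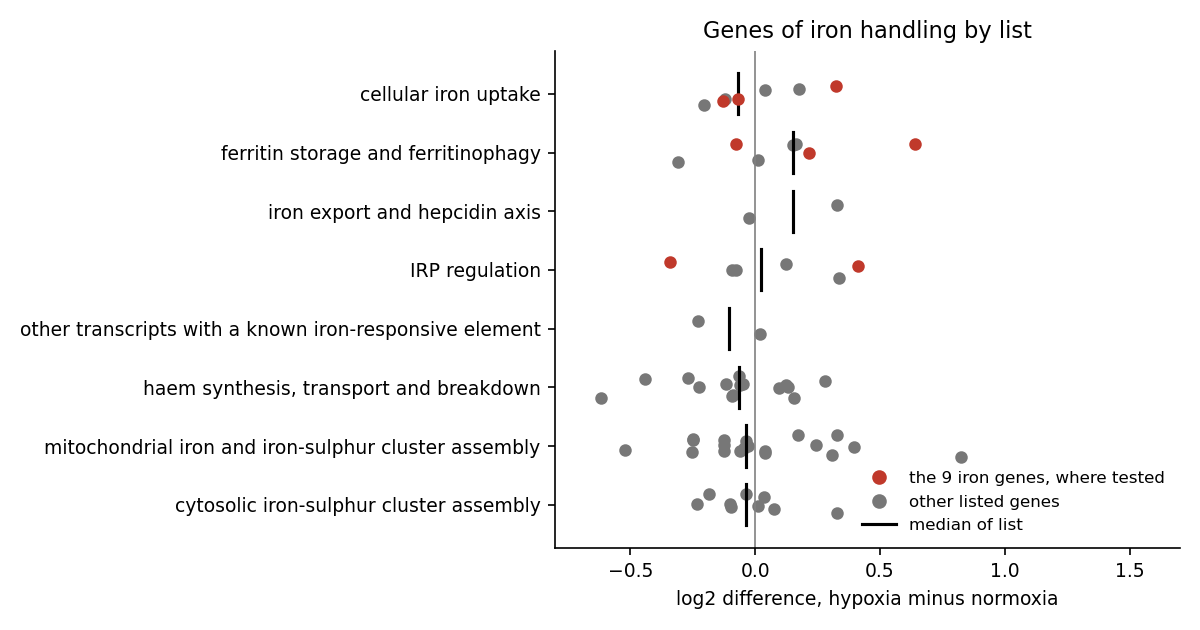
Log2 difference, hypoxia minus normoxia, of each tested gene in the 8 lists (limma, n = 3 per group), with the iron genes in red, other genes in grey and a bar at each list's median. List medians lay between -0.10 and 0.15, and the point farthest right is SLC25A37 at 0.83.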

How the data were processed

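Values are read counts per gene divided by 1 size factor per library, a signal with no length scaling: in each deposited column 100% of values were whole multiples of 1 step (tolerance 0.05 of a step), so whole reads were recovered. The submitters' processing notes list CASAVA, HISAT2 2.0.5 and featureCounts 1.5.0-p3, and the mouse build mm9, although all 22153 identifiers are human. The true build, the annotation and the strand setting: not given in the sources used here. Symbols were found for 21988 identifiers, and lengths and GC content came from GENCODE 29.

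The design assumed FPKM. Deposited values were therefore turned into FPKM with exon lengths and the average library size. Limma 3.58.1 in R 4.3.3 (trend, robust, two-sided, Benjamini-Hochberg, adjusted p below 0.05) was run on log2(FPKM + 0.1) of the 10237 genes that reached 1 FPKM in 3 or more libraries. Fold changes of low genes are understated. edgeR 4.0.16 and DESeq2 1.42.0 were run on recovered reads. GC correction subtracted a smoothing spline (5 degrees of freedom) per library. Within-library ratios were compared by exact permutation. Intervals are not adjusted for the number of genes.

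A listed gene is not reported here. Genes, lists and tests were chosen with earlier results of these data known. Named genes were the 9 iron genes, and from each list the 2 tested genes with the largest differences where none passed. FLVCR1, STEAP2, LYRM4 and NFS1 were added after their values were seen. The 3 nearest profiles were taken for the iron gene with the largest difference.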

Additional observations from a re-analysis of the deposited data

How the results depend on the processing

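Under 15 alternatives 0 of the iron genes passed the test. The count over all genes was 10, with 4 under no filter, 31 after GC correction, 50 by DESeq2 and 1 to 20 with a library left out. TMM scaling moved the median of all genes to 0.035, from 0.0035. Fitted with the replicate number as a block, 19 genes and 0 iron genes passed. Deviations of same-numbered libraries correlated at -0.40, 0.24 and 0.22. The highest correlation, 0.61, was between hypoxia replicate 2 and normoxia replicate 1, the libraries with the most positive GC trends. Hypoxia replicate 1 deviated most like normoxia replicate 3, at 0.50. These values cannot show whether samples were handled in pairs, which the labels do not say. The main fit was unpaired.

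With a library left out, log2 differences ran from -0.072 to 0.75 (TFRC), -0.12 to 1.08 (FTH1), -0.17 to 0.083 (FTL), -0.60 to 0.022 (IREB2), -0.19 to 0.0079 (SLC11A2), -0.27 to 0.0026 (STEAP3), -0.36 to 0.016 (SLC39A14), -0.32 to 0.87 (TAX1BP1), -0.44 to 0.24 (BMP6), -0.012 to 0.36 (CUL1), -0.30 to 0.44 (EPAS1) and -0.79 to 0.031 (ABCG2). Signs held, but values moved, for NCOA4 (0.022 to 0.46), FBXL5 (0.21 to 0.61), LTF (0.050 to 0.39), HERC2 (-0.61 to -0.048), HFE (0.054 to 0.60), RBX1 (0.21 to 0.58), CDC42BPA (-0.45 to -0.011), HMOX1 (-0.87 to -0.26), ABCB10 (-0.79 to -0.28), CIAO2B (0.064 to 0.49) and NDOR1 (-0.42 to -0.013). The log2 differences of the ratios ran from -0.20 to 1.23 (FTH1 to FTL), -1.15 to 0.79 (TFRC to FTH1) and -0.56 to 0.22 (IREB2 to ACO1). TAX1BP1 was -0.16 by edgeR and -0.20 by DESeq2, and BMP6 was 0.0072 with TMM scaling. The causes were not tested. IREB2 and SLC11A2 have no value under the stricter filter. SLC40A1 had 8 to 57 reads per library and was below the filter.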

Other observations

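Genes other than the 9 iron genes whose transcripts hold the full iron-responsive motif were described too. Of 14 such genes tested with the motif in a 5′ UTR, 8 had a positive log2 difference and the median was 0.02, beside 0.0035 over all genes tested. Limma, edgeR and DESeq2 called 0 of them, limma called 0 at an unadjusted p below 0.05, and their groups overlapped in every case. Of 75 with the motif in a 3′ UTR, 38 were positive and the median was 0.0012. Limma and edgeR called 0 of these after adjustment and DESeq2 called 1, FLRT2, beside 0.488% of all genes tested. At an unadjusted p below 0.05 limma called 3 (GPI, KLF7 and FLRT2), beside 2.69% of all genes tested, and groups did not overlap in 5, beside 7.48% of all genes tested. Every hypoxia library lay above every normoxia library in GPI, KLF7 and SVBP and below in USP36 and FLRT2. FLRT2, a membrane protein of cell adhesion, had 366, 385 and 405 scaled reads in hypoxia, against 805, 987 and 787 in normoxia. Its adjusted p was 0.000377 by DESeq2, 0.268 by edgeR and 1.00 by limma, with a log2 difference of -1.04. GPI, the glycolytic enzyme glucose-6-phosphate isomerase, had means of 13285 ± 3892 scaled reads in hypoxia and 6652 ± 980 in normoxia (SD, n = 3 each). These genes were named after their values were seen, and a motif match in a UTR says nothing on whether iron regulatory proteins bind there.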
